A study of Mus musculus with 28 samples.

Results

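The miR-290 to miR-295 and miR-302 clusters hold microRNA genes of pluripotent cells, and 10 of them were taken by name from the 1228 microRNA genes that the RefSeq table places on assembled chromosomes of GRCm38.p6, the assembly whose primary chromosomes are those of mm10. Mir290a, Mir291a, Mir292a (listed as Mir292), Mir293, Mir294 and Mir295 form the miR-290 cluster on chromosome 7, with hairpins between 3218626 and 3220841 over 2216 bp. Mir302a, Mir302b, Mir302c and Mir302d form the miR-302 cluster on chromosome 3, between 127545228 and 127545689 over 462 bp. Each cluster was examined with 50 kb on either side, in windows of 102.2 kb and 100.5 kb. The data were the positions of consensus regions for the histone variant H3.3 and for H3K27ac, acetylation of lysine 27 of histone H3, mapped by CUT&RUN in nuclei of E14 mouse embryonic stem cells, a male line. The labels describe serum medium with LIF and a form of it with added GSK and MEK inhibitors, and do not tie either to a library.

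CUT&RUN releases and sequences the DNA that a nuclease cuts around an antibody's target. The 28 libraries had 7 each for H3.3, H3K27ac, H3K122ac and a control without primary antibody. Their genotypes carried the K122A substitution of H3.3, written A in the labels, in both alleles of H3f3a and 1 of H3f3b (H3f3a_AA_H3f3b_WTA, 2 clones), in 1 allele of H3f3a and both of H3f3b (H3f3a_WTA_H3f3b_AA), in both alleles of H3f3a alone (H3f3a_AA_H3f3b_WTWT) or in both of H3f3b alone (H3f3a_WTWT_H3f3b_AA), and wildtype cells had 2 libraries per target. The H3f3a_AA_H3f3b_WTA genotype had 2 libraries per target, 1 from each clone, and the other mutant genotypes had 1. H3.3 and H3K27ac each have 1 list of regions used here, with no height and no value per library. Genotypes could therefore not be compared, depth is unknown, nothing below has replicates, and a position without a region shows no more than that the list holds none there.

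A microRNA is cut from a hairpin in a longer primary transcript, loaded into an Argonaute protein and guided to messenger RNAs by its seed, bases 2 to 8 counted from its 5′ end. In mouse embryonic stem cells the miR-290 cluster is a major source of microRNAs, and its products shorten the first gap phase of the cell cycle by lowering inhibitors of cyclin-dependent kinases. The miR-302 cluster is known for primed, epiblast-like cells, and both clusters are bound by OCT4, SOX2 and NANOG. H3K27ac marks active promoters and enhancers, and H3.3 is the histone H3 variant placed outside DNA replication.

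The mature sequences show what the 2 clusters share although they lie on different chromosomes. The 3′ arms of 8 members, from RefSeq (GRCm38.p6, plus strand), are printed 5′ to 3′ with the seed in capitals, grouped by seed.
miR-291a-3p: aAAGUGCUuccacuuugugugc
miR-294-3p: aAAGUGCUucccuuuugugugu
miR-295-3p: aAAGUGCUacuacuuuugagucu
miR-302b-3p: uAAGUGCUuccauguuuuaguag
miR-302d-3p: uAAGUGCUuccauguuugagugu
miR-302c-3p: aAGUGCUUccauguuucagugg
miR-290a-3p: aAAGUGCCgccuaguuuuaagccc
miR-293-3p: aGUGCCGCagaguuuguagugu

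The seed AAGUGCU was shared by 3 arms of the miR-290 cluster and 2 of the miR-302 cluster, and by 5 of the 1679 mature sequences used here, which are the 5 printed. The 3′ arms of Mir292a and Mir302a were not analysed here, and the 1679 leave out mature sequences from chromosome 18. The arm of Mir302c has the same letters 1 base nearer its 5′ end, which gives it the seed AGUGCUU. The arm of Mir290a differs in the last base of the seed, AAGUGCC, and that of Mir293 has GUGCCGC. The 6 letters AAGUGC stood within the first 8 bases of 7 of these 8 arms and of 18 of the 1679 sequences (1.07%). The other hairpins of the 2 clusters gave 2 of the 18, and 9 came from elsewhere, among them miR-17-5p, miR-20a-5p, miR-93-5p and miR-106b-5p of the miR-17 family. The 5′ arms shared no seed between the clusters. CUUUAAC was the seed of 3 miR-302 arms (Mir302b, Mir302c and Mir302d), and CUCAAAC that of 3 miR-290 arms (Mir290a, Mir292a and Mir293).

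All 10 members had H3K27ac within 1 kb of the hairpin, in 2 very different forms. The 6 hairpins of the miR-290 cluster lay wholly inside a single H3K27ac region of 22757 bp, on chromosome 7 from 3198570 to 3221326. The miR-302 cluster had a region of 226 bp, on chromosome 3 from 127545044 to 127545269, which touched 1 of its 4 hairpins. H3K27ac lay within 1 kb of 10 and touched the hairpin of 7 of the 10 members, against 26.1% and 14.3% of all microRNA genes. Neighbouring hairpins share a region, so these 10 rest on 2 regions and are not 10 independent cases.

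**Figure D1:**
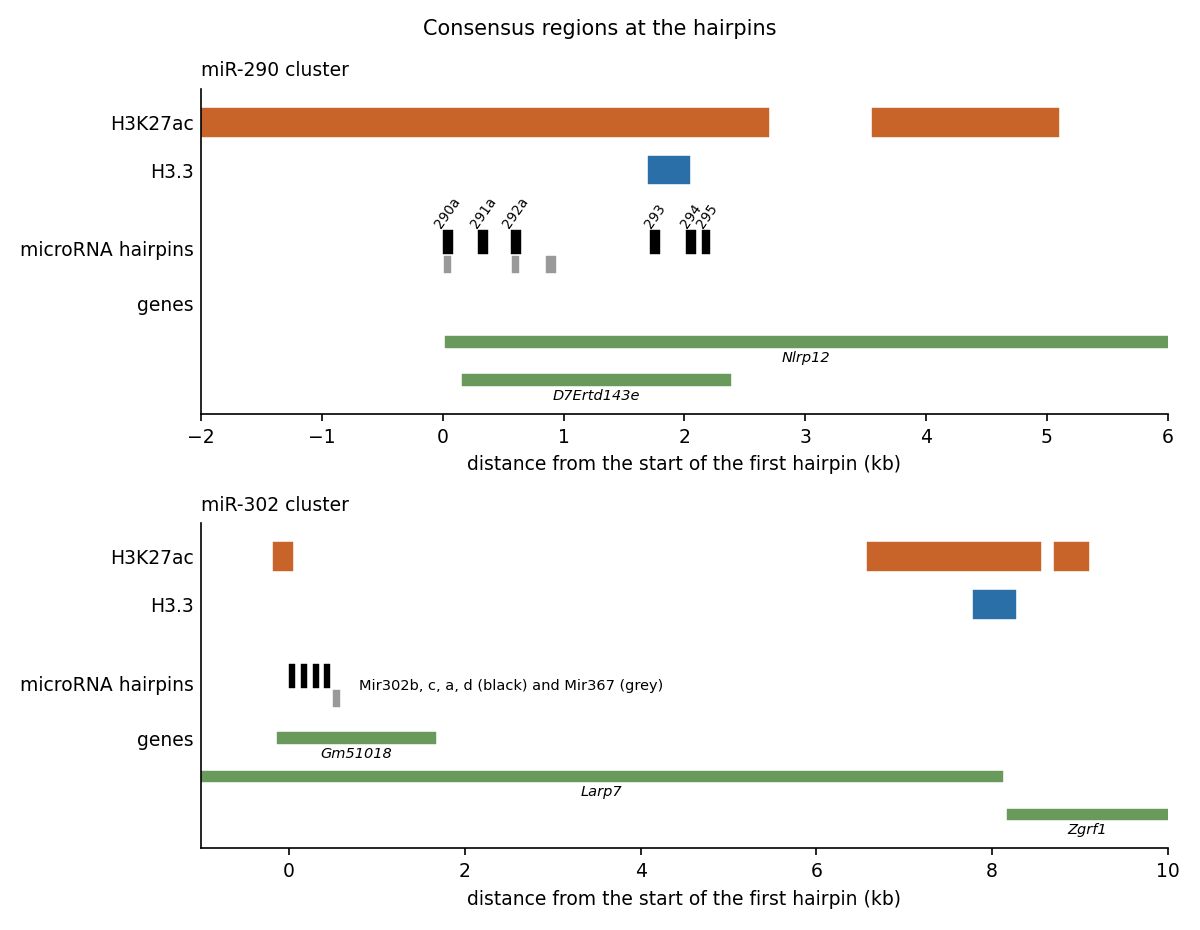
H3K27ac and H3.3 regions (bars) at the hairpins of the miR-290 cluster (top) and the miR-302 cluster (bottom), by distance in kb from the start of the first hairpin. Black boxes are the 10 members, grey boxes the other hairpins of the clusters and green bars genes; the 6 miR-290 hairpins lie inside the H3K27ac region of 22757 bp, and the region of 226 bp touches Mir302b.

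The miR-290 region reached far to 1 side of the hairpins. It began 20056 bp before Mir290a, ran through the cluster and ended 485 bp beyond Mir295. Of the 57844 H3K27ac regions on assembled chromosomes it was the 25th widest, where the median width was 812 bp. Among the 148 H3K27ac regions that touched any microRNA hairpin it was the second widest, after 1 of 23199 bp at Mir7003, and the median of those 148 was 2081 bp. It held 9 hairpins, the 6 members with Mir290b, Mir291b and Mir292b, and no other region held more than 4.

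The region at Mir302b stood at the other end of that order. It was the 147th widest of the 148, and 1 was narrower, at 213 bp. It overlapped 42 of the 74 bases of the Mir302b hairpin and ended 94 bp before Mir302c, 227 bp before Mir302a and 355 bp before Mir302d. Of all H3K27ac regions, 5.77% were narrower.

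**Figure D2:**
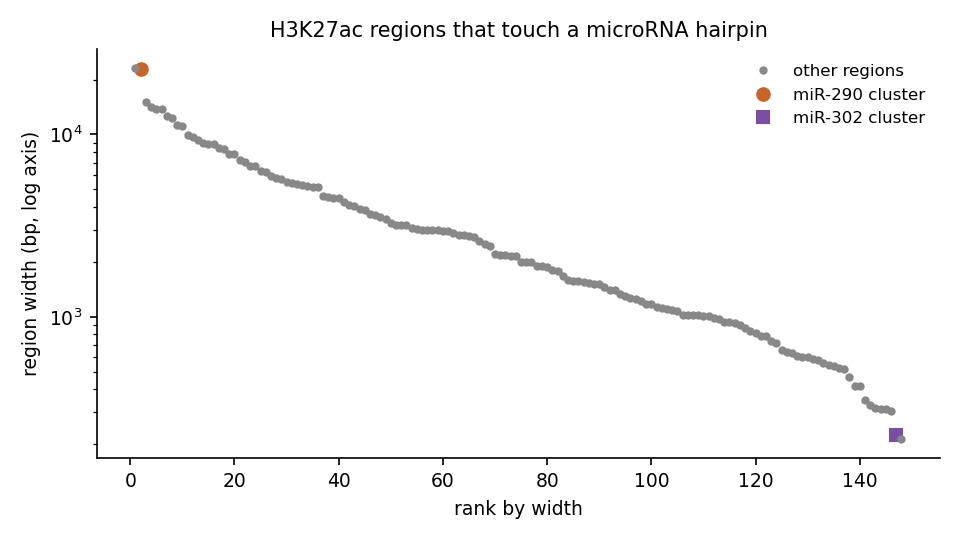
Width in bp (log axis) of the 148 H3K27ac regions that touch a microRNA hairpin, ordered by width. The region of the miR-290 cluster (circle, 22757 bp) is second and that of the miR-302 cluster (square, 226 bp) is 147th.

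H3.3 was found at the far end of the miR-290 cluster. A region of 347 bp, on chromosome 7 from 3220326 to 3220672, covered all 80 bases of the Mir293 hairpin and 32 of the 84 bases of the Mir294 hairpin, and it ended 101 bp before Mir295. Mir292a, Mir291a and Mir290a lay 1056, 1326 and 1618 bp before it. The other hairpin between them, Mir291b, lay 766 bp before it. H3.3 was thus within 1 kb of 3 members and touched 2, where over all microRNA genes it lay within 1 kb of 4.32% and touched 1.95%. Both marks touched Mir293 and Mir294, as they did 0.733% of all microRNA hairpins, 9 in number at 8 loci. Of the 5430 H3.3 regions 39.3% were narrower, and the median was 451.5 bp.

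The miR-302 hairpins had no H3.3 region near them. The nearest, of 498 bp on chromosome 3 from 127553007 to 127553504, began 7318 bp after Mir302d and was 7706 bp from Mir302b.

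Across the whole windows, H3K27ac regions covered 11.1 times as much length at the miR-290 cluster as at the miR-302 cluster. In the miR-290 window 11 H3K27ac regions covered 36.2 kb (35.4%), and in the miR-302 window 4 covered 3.27 kb (3.25%). H3.3 covered 1.45 kb in 3 regions (1.42%) in the miR-290 window and 0.498 kb in 1 region (0.496%) in the miR-302 window. The 2 values of each mark are 1 locus each, so the differences have no error and no test.

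**Figure D3:**
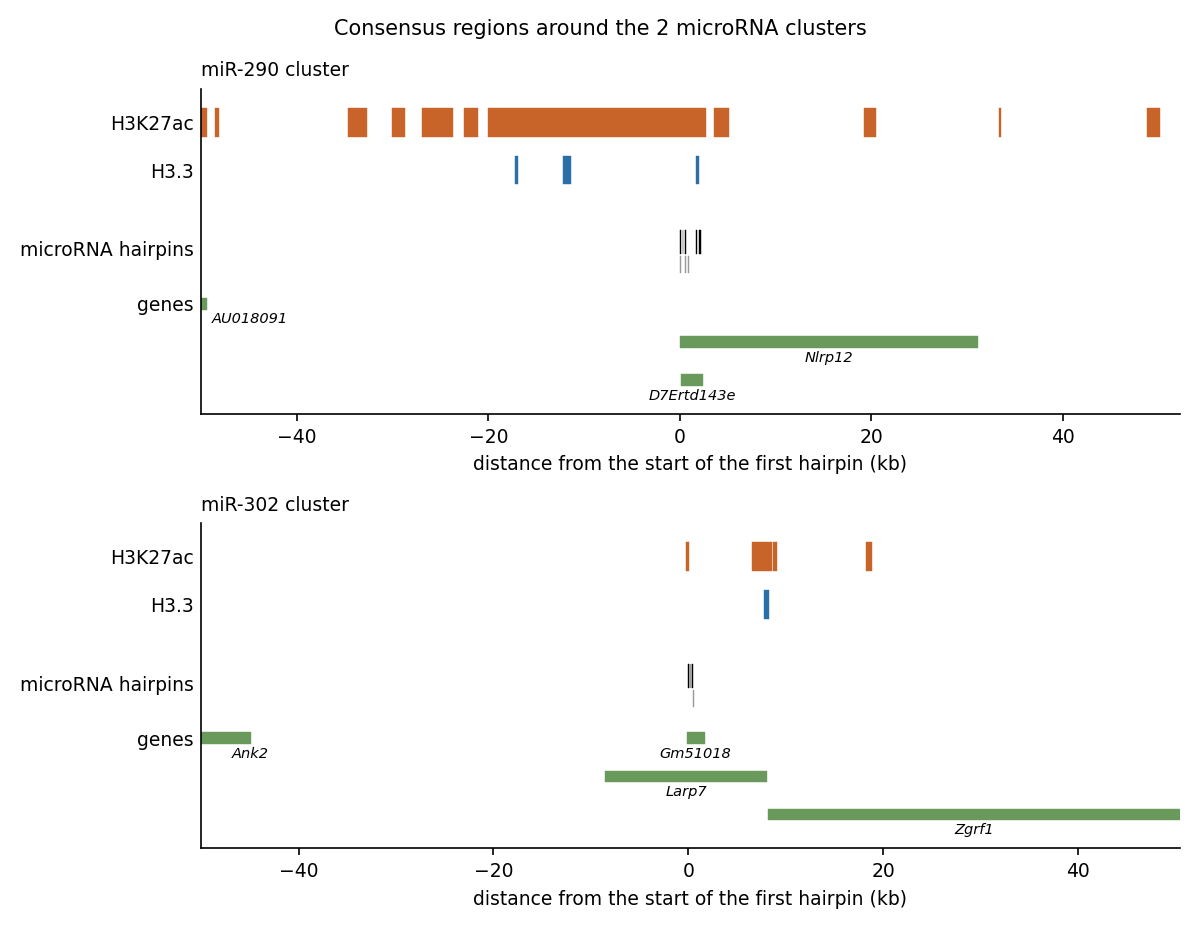
H3K27ac and H3.3 regions (bars) in the windows of the miR-290 cluster (top) and the miR-302 cluster (bottom), by distance in kb from the start of the first hairpin, with hairpins (black for members, grey for others) and genes (green). H3K27ac covers 35.4% of the miR-290 window, mostly before the hairpins, and 3.25% of the miR-302 window.

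The acetylation of the miR-290 window lay mainly before the hairpins. In the 50 kb before Mir290a, 29.1 kb were covered (58.3%), and in the 50 kb after Mir295, 4.86 kb (9.71%). Going out from the widest region, the 4 regions before it had widths of 1411, 3214, 1349 and 2071 bp, with gaps of 1064, 1147, 1815 and 2582 bp. After the cluster came 1 region of 1549 bp across a gap of 850 bp, and then 14085 bp without one. Joined at gaps under 12500 bp, the regions around the hairpins formed a stretch of 6 regions over 39.8 kb that held 32.4 kb of H3K27ac. It ranked 476th of 15441 such stretches by that length, within the top 3.08%.

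All 3 H3.3 regions of the miR-290 window lay inside the H3K27ac region of 22757 bp. Besides the one at Mir293, of 347 bp, there was one of 840 bp, from 3206390 to 3207229, which began 12236 bp before Mir290a. Another of 263 bp, from 3201406 to 3201668, began 17220 bp before it. Of all 57844 H3K27ac regions 4.36% touched an H3.3 region, and 9 touched 3 or more (0.0156%). Among the 44 H3K27ac regions wider than 20 kb, 25 touched an H3.3 region (56.8%) and 2 touched 3 or more, the miR-290 region being 1 of the 2.

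In the miR-302 window most of both marks lay away from the hairpins, where Larp7 and Zgrf1 meet. Larp7, which encodes an RNA-binding protein of the 7SK particle, spans the miR-302 hairpins on the opposite strand, and its upper end is 47 bp from the lower end of Zgrf1, a gene for a GRF-type zinc finger protein. An H3K27ac region of 1981 bp, from 127551800 to 127553780, covered both ends, and the H3.3 region of 498 bp lay inside it. A further H3K27ac region of 405 bp followed after 150 bp, and 1 of 653 bp lay inside Zgrf1. The 50 kb before Mir302b hold the upper end of Ank2, an ankyrin gene, and the lower part of Larp7. These 50 kb had no H3K27ac beyond the 184 bp of the region at Mir302b and no H3.3. Neurog2, a proneural factor gene 87044 bp beyond Mir302d and outside the window, had an H3.3 region of 3164 bp and no H3K27ac region.

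Both long noncoding RNA genes annotated over the hairpins had their start inside an H3K27ac region. They differed in how much of their length it covered. H3K27ac touched 17.6% of the 32851 promoter windows, each of 250 bases before and 50 after a start. Gm51018, a long noncoding RNA gene on the plus strand from 127545089 to 127546903, spans the 4 miR-302 members, and the H3K27ac region of 226 bp covered its start, from 45 bp before it to 181 bp into it. The promoter table holds 250 bases before and 50 after that start. Its sequence is shown because the region begins there, at chr3:127544839-127545138 (GRCm38.p6, plus strand), with the 95 bases inside the H3K27ac region in capitals. The region runs on beyond the printed window.
Gm51018 promoter: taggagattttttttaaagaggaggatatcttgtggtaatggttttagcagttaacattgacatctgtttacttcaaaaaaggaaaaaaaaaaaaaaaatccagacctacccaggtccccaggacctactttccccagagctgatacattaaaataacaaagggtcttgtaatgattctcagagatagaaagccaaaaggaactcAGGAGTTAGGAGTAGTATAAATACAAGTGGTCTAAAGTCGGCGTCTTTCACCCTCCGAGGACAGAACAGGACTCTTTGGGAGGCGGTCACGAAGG

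D7Ertd143e, a long noncoding RNA gene on the plus strand from 3218784 to 3221015, spans 5 of the miR-290 members, and the H3K27ac region covered all of it. Its annotated start lies 76 bp after the end of the Mir290a hairpin, so that member falls before the start. The promoter window, at chr7:3218534-3218833 (GRCm38.p6, plus strand), is shown with the 83 bases of that hairpin in capitals.
D7Ertd143e promoter: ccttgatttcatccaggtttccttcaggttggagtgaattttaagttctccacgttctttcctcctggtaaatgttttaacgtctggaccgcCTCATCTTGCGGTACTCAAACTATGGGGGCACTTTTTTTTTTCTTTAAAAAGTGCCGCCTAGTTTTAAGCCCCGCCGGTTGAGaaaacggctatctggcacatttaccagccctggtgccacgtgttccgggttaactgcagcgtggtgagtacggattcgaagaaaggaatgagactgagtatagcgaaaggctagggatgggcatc

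Of 6 short motifs searched on both strands, each promoter held 1. In Gm51018, TATAAA began 30 bases before the start and inside the H3K27ac region, and 13.6% of the 32851 promoter windows of the table hold it. In D7Ertd143e the E-box CACGTG began 39 bases before the start, and 7.15% of windows hold it. TGCAAAT, the octamer core, ACAATG, the SOX core, CCACCC, the KLF core, and AAGGTCA, the ESRRB core, had no match in either window. They occur in 4.02%, 12.6%, 31.5% and 4.72% of all windows. The D7Ertd143e window surrounds a start annotated after Mir290a. Sequence before that window was not searched, so the absence of a match holds for the window alone.

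Nlrp12, a gene of the NOD-like receptor family, is annotated on the minus strand from 3218643 to 3249771. It holds 5 of the miR-290 hairpins wholly, and its lower end falls inside the Mir290a hairpin. The promoter window at its upper end touched neither mark, and its H3K27ac within 1 kb came from 3 regions, the widest being that of the cluster. AU018091, a protein-coding gene at the lower edge of the window, had 2 H3K27ac regions at its upper end and no H3.3. Beyond the window, the nearest protein-coding gene above was the membrane protein gene Myadm, 68197 bp after Mir295, which had 4 H3K27ac and 2 H3.3 regions. Below the window the nearest other one annotated was LOC115489386, from 219688 to 248401, which is far from the cluster. On the miR-302 side they were Camk2d, a calcium-dependent kinase gene, and Neurog2.

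Set beside other microRNA loci, the miR-290 window was near the top for H3K27ac and the miR-302 window near the middle. MicroRNA genes under 10 kb apart were joined, which gave 941 other loci, each with 50 kb on either side. Their median H3K27ac cover was 4.21%. Of the 941, 95.5% (899) had less than the miR-290 window and 47.2% (444) less than the miR-302 window. For H3.3 the shares with less were 87.5% and 70.1%, with a median of 0% since 56.3% of loci had no H3.3 region in the window. Against windows around the 21887 protein-coding genes, 97.8% had less H3K27ac than the miR-290 window and 51.9% less than the miR-302 window.

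**Figure D4:**
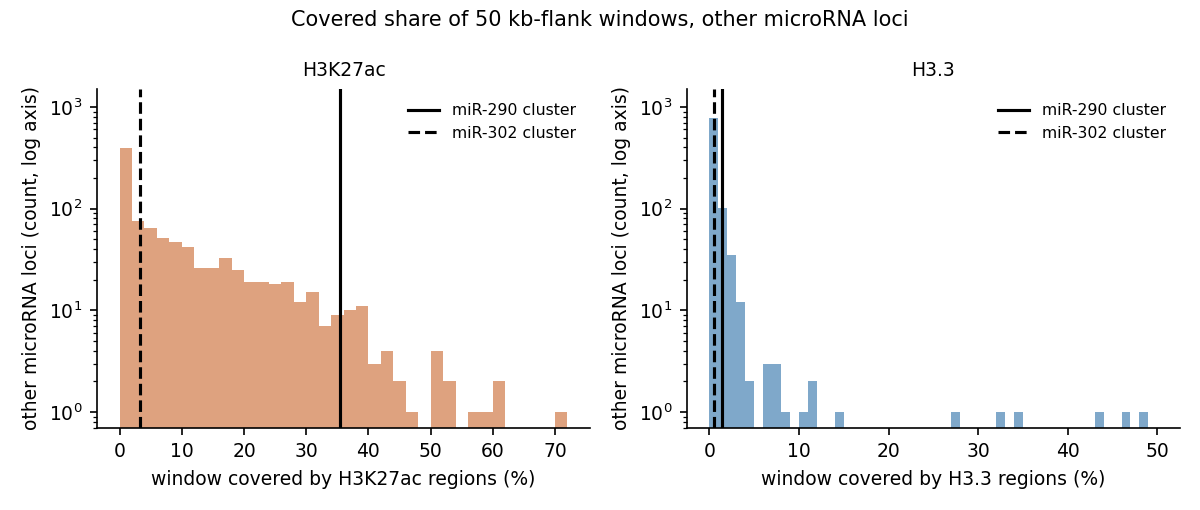
Number of other microRNA loci (log axis) by the percent of their 50 kb-flank window covered by H3K27ac (left) or H3.3 (right) regions. Lines mark the miR-290 cluster (solid, 35.4% and 1.42%) and the miR-302 cluster (dashed, 3.25% and 0.496%).

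The loci nearest to each cluster in that order were of other kinds. The likeness is covered percent alone, over 941 loci. Just below the miR-290 window were Mirlet7g, a let-7 gene, at 35.4%, Mir6996 at 35.3% and Mir3965 at 35%. Just above it were Mir7116, Mir5622 and Mir7083, each at 36.1%. H3K27ac touched the hairpin of Mirlet7g, Mir3965, Mir7116, Mir5622 and Mir7083, against 14.3% of all microRNA genes. These loci were picked by their H3K27ac cover, which favours such contact. H3.3 touched none of the 6, which is near the 1.95% of all microRNA genes. Around the miR-302 window stood Mir7091 at 3.18%, Mir7647 at 3.15% and Mir671 at 3.13% below, and Mir8091 at 3.25%, Mir692-3 at 3.3% and Mir208a, a heart muscle microRNA gene, at 3.33% above. No hairpin of these 6 was touched by either mark. That is near the shares over all microRNA genes, 14.3% for H3K27ac and 1.95% for H3.3.

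For comparison with the members, other microRNA genes of growing stem cells were examined. The list held 19 genes of the miR-17, miR-106b, miR-106a and miR-200 clusters with Mir21a and Mir130a, and 13 had H3K27ac within 1 kb (68.4%, against 26.1% of all microRNA genes). Neighbouring genes share regions, and the 13 rest on 5 regions. H3.3 was near 0 of the 19, which is close to the 4.32% of all microRNA genes. The genes whose products share AAGUGC with the members were split. Mir106b and Mir93 lay in a region of 5174 bp, and Mir17 and Mir20a within 1 kb of 1 of 1562 bp. Mir106a and Mir20b, on the X chromosome, had neither mark.

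MicroRNA genes of differentiated tissues were a further list. Of 30, 5 had H3K27ac within 1 kb (16.7%, against 26.1% of all microRNA genes) and 8 had H3.3 (26.7%, against 4.32%). The difference between the 2 marks was not tested. The widest H3.3 regions were those at Mir196b (6922 bp) and Mir196a-2 (5429 bp), in Hox clusters, at Mir9-3, a neural microRNA gene (3489 bp), and at Mir10a, also in a Hox cluster (3068 bp). The H3.3 region at Mir293, of 347 bp, was far narrower than these and lay in acetylated chromatin, whereas none of these 4 had H3K27ac within 1 kb. H3K27ac was widest at Mirlet7g (9699 bp), Mirlet7a-1 (3528 bp), Mirlet7e (2808 bp) and Mir124a-1 (1786 bp).

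**Figure D5:**
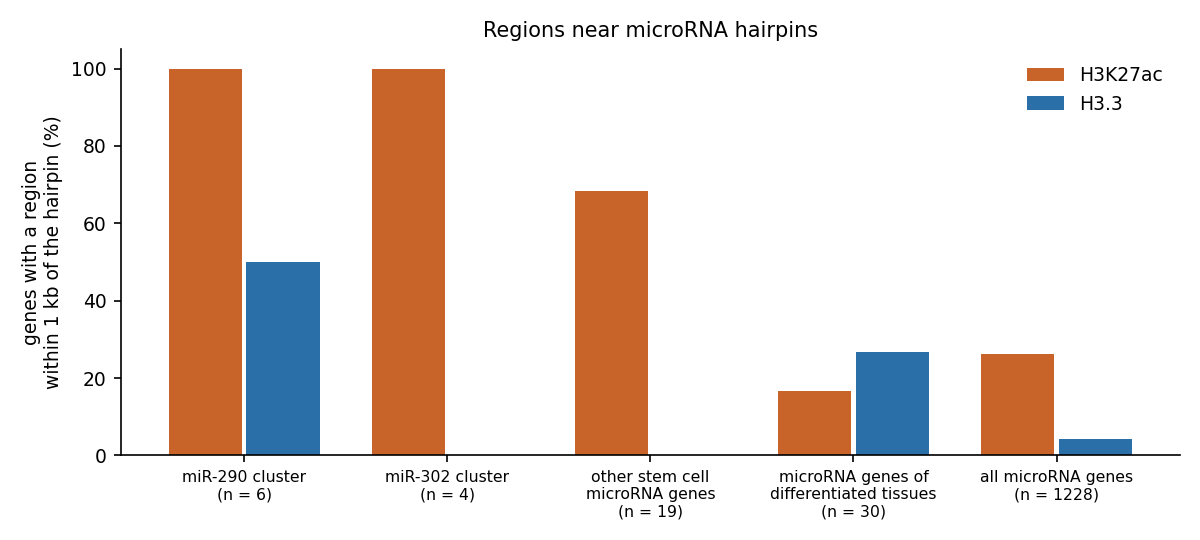
Percent of genes with an H3K27ac (orange) or H3.3 (blue) region within 1 kb of the hairpin, for the 2 clusters, 2 comparison lists and all microRNA genes. H3K27ac is near all members of both clusters, against 26.1% of all microRNA genes, and of the 2 clusters H3.3 is near members of the miR-290 cluster alone.

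The genes that make and use these microRNAs were mostly acetylated. Of 16 processing and effector genes, 14 had H3K27ac in the gene or within 1 kb (87.5%), where 50.8% of all protein-coding genes had it, and 5 had H3.3 (31.2%, against 19.6%). These shares also depend on gene length, since a longer gene can hold more regions. The widest H3K27ac region was at Trim71, a let-7 target that encodes an RNA-binding ubiquitin ligase (22872 bp), and it was of nearly the same width as that of the miR-290 cluster. Dgcr8, the partner of Drosha in cutting primary transcripts (11259 bp), Ago2, an Argonaute (6384 bp), and Drosha itself (6251 bp) followed. Ago4, an Argonaute gene, and Prkra, which encodes a partner of Dicer, had no H3K27ac region. H3.3 was found at Tarbp2, a further Dicer partner gene (2132 bp), Lin28a, the blocker of let-7 maturation (1395 bp), Ago1 (966 bp), Tnrc6b (555 bp) and Tnrc6a (280 bp), the last 2 being genes of GW182 proteins.

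Genes reported as targets of the shared seed carried the marks in mixed fashion. Of 16, 11 had H3K27ac (68.8%, against 50.8% of all protein-coding genes). H3.3 was at 4 (25%, against 19.6%), a share near that of all genes. Both shares also depend on gene length, as for the processing genes. H3K27ac was widest at Ei24 (5020 bp), the cell cycle kinase gene Wee1 (3578 bp), the Nodal antagonist gene Lefty2 (3353 bp) and the small GTPase gene Rhoc (2134 bp). Cdkn1a, which encodes the cell cycle inhibitor p21, had 1 region of 1648 bp, and Lats2, a kinase gene of the Hippo pathway, had 3, of at most 305 bp. Akt1, Cdkn1c, Dkk1, Nr2f2 and Tgfbr2 had none. The H3.3 regions were at Nr2f2, an orphan nuclear receptor gene (2218 bp), Rhoc (721 bp), Rbl2, a retinoblastoma family gene (366 bp), and Cdkn1c (223 bp).

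The labelled cell type was checked against marker genes, taken with 1 kb on either side. All 10 embryonic stem cell markers had H3K27ac, among them Pou5f1, Sox2, Nanog and Esrrb. Of 6 fibroblast markers 1 had it, Thy1, with 213 bp, and 0 of 6 primitive endoderm and 0 of 5 trophoblast markers did, where 50.8% of all protein-coding genes had it. H3.3 regions were at 5 of the 10 stem cell, 1 of the 6 fibroblast, 5 of the 6 primitive endoderm and 3 of the 5 trophoblast markers, against 19.6% of all protein-coding genes. The fibroblast count for H3.3 is near the share of all genes. All these marker counts also depend on gene length.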

How the data were processed

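CUT&RUN libraries were made from E14 nuclei, with protein A/G-MNase for H3.3 and protein A-MNase for the acetylation marks, per the labels' protocols. The submitters' processing notes name mm10, Bowtie2, SAMtools, deepTools and MACS2, with no version. For how libraries of mutant and wildtype cells entered the lists, the answer is not given in the sources used here. Each deposited list holds only a chromosome, a start and an end per region, and no score or other value. Starts were raised by 1, and 13 H3K27ac and 16 H3.3 regions off the assembled chromosomes were left out. The number of columns from other samples was 0.

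Gene positions came from RefSeq for GRCm38.p6, and exons were not used. A mark counted as present where a region overlapped by at least 1 bp. Positions were compared in Python 3.11.15 with NumPy 2.4.6, SciPy 1.17.1 and matplotlib 3.10.9, and the overlap code was tested on simulated data. Distances are between facing end positions. With pooled lists there are no replicates and no tests. Members, lists and motifs were chosen with earlier results of these data known. Most genes outside the members were named by position in or next to the windows, order of cover, width of region or lack of a region. Cdkn1a, Lats2, the named cell type markers and the microRNA genes sharing AAGUGC were named outside these rules. Alternatives changed flank, distance, width, joining and the windows compared.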

Additional observations from a re-analysis of the deposited data

How the results depend on the processing

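No paired analysis was possible because the lists carry no value per library. The 48 alternatives kept 22 values and moved 26. A percentile moved if it left its exact 95% interval, and any other value if it changed by over 1.5 times. Windows of nearby loci can overlap, so that interval is a rule for labelling and no measure of error. For each alternative the cause was not tested beyond how the alternative is built. With 25 kb flanks the miR-290 window was covered to 54.3% by H3K27ac and 2.78% by H3.3 and the miR-302 window to 6.47% and 0.987%, and 98.2% and 60.5% of microRNA loci had less H3K27ac. With 100 kb those shares were 93.3% and 40.2%, and H3.3 covered 3.12% around miR-302. That wider window takes in the region of 3164 bp at Neurog2, which is only part of this cover. No library could be left out, for the same reason. Against protein-coding genes the shares were 97.8% and 51.9%, and against tiles of the same length 98.8% and 81.0%. With the wider 50% of each list, H3.3 covered 0.822% of the miR-290 window and H3K27ac 1.97% of the miR-302 window, 6 members were near H3K27ac and 0 near H3.3, against 2.36% of all microRNA genes for H3.3, since the regions at Mir302b and Mir293 are below the median widths. Within 2.5 kb 6 members were near H3.3, as within 5 kb, against 7.33% and 10.2% of microRNA genes, and H3K27ac was within 5 kb of 41.0%. At the hairpin itself the shares of microRNA genes were 14.3% and 1.95%. Joined at 5 kb, the miR-302 stretch held 0.226 kb.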

Other observations

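Loci with much H3.3 were a different set from the miR-290 cluster. The miR-290 window had 1.42% H3.3 and 35.4% H3K27ac. The 3 microRNA loci with the most H3.3 in their window were Mir196a-2 (48.1%), Mir10a (46.7%) and Mir196b (43.7%), which lie in Hox clusters, and each had 0% H3K27ac. The 3 loci with the most H3K27ac were Mir7227 (70.1%), Mir1195 (61.2%) and Mir6398 (61.1%). H3K27ac touched the hairpin of each, against 14.3% of all microRNA genes, but ranking by H3K27ac cover favours such contact. The hairpin of the next locus, Mir1936 (58.2%), was not touched.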
